A study of Rattus norvegicus with 30 samples.

Results

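Platelet-derived growth factors (PDGFs) and their receptors were followed by RNA sequencing in rat plantaris tendons that were cut and repaired. The 7 genes described here are the ligands Pdgfa, Pdgfb, Pdgfc and Pdgfd, the receptors Pdgfra and Pdgfrb, and the receptor-like gene Pdgfrl. They were chosen by name, as the PDGF ligand and receptor genes listed in the deposited count table. All 7 were among the 13124 genes of that table, and all 7 were among the 12558 genes kept after a filter on low counts.

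PDGFs are dimeric growth factors that drive the division and migration of fibroblasts, smooth muscle cells and pericytes. Pdgfa and Pdgfb encode chains that are processed inside the cell, whereas the products of Pdgfc and Pdgfd are secreted in a latent form and activated by proteases outside it. The receptors are tyrosine kinases: the alpha receptor is typical of fibroblasts and other mesenchymal cells, and the beta receptor of pericytes, smooth muscle cells and activated fibroblasts. PDGF is released from platelets at wounds and is known in tendon as a mitogen for tendon fibroblasts.

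The animals were 3-month-old male Sprague Dawley rats, and each sample was the plantaris tendon of the right leg of 1 rat. It was cut free below the myotendinous junction and above the calcaneus, to keep muscle and bone out. Control tendons came from 3 rats that had no tenotomy and were not given the compound. Whether they received vehicle is not stated in the sources used here. Repaired tendons came from rats whose plantaris tendons were cut and sutured on both sides, and that received GSK2894631A, an inhibitor of hematopoietic prostaglandin D synthase (HPGDS), by oral gavage 2 times a day. The dose was 0 mg/kg (vehicle alone), 2 mg/kg or 6 mg/kg, for 7 days (7D; 5, 4 and 3 tendons) or 21 days (21D; 5 tendons at each dose). Effects of surgery and of gavage cannot be told apart in a comparison with control tendons, and no group received the compound without surgery. The study asked whether HPGDS inhibition alters the repair of an injured tendon, and for the PDGF genes this gives comparisons of repaired with control tendons, of 21D with 7D tendons, and of doses within a time point.

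Total counts on the listed genes were 12405741 to 49909374 per tendon, and every PDGF gene had at least 190 counts in every tendon. A floor of 3 counts was worth 0.0601 to 0.242 CPM (counts scaled to the library total). Levels are given as CPM after scaling by trimmed mean of M-values (TMM), and are compared for 1 gene between tendons, not between genes. Skeletal muscle genes held 20.2 to 27.9% of the counts of control tendons but 0.00905 to 9.95% of those of repaired tendons, so the control libraries carried much more muscle RNA. Control replicate 4 stood apart from the other controls. Its 9 measured fibroblast markers summed to 13420 CPM, against 36110 and 48770 CPM, and its 25 measured muscle markers to 466600 CPM, against 256600 and 276600 CPM. The tendon markers Tnmd and Scx were present in every control tendon, at 147 to 364 CPM and 19.0 to 37.2 CPM. In bulk tissue, fewer cells of a type and less RNA per cell cannot be told apart.

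With TMM scaling, Pdgfa and Pdgfb were the ligand genes that were lower than in control tendons in at least 1 repaired group. Neither passed the test with scaling on library size only, and the Pdgfb result was also lost without control replicate 4. Levels of Pdgfa and Pdgfb moved together over the repaired tendons, less closely within groups (Pearson r = 0.63 and 0.366). For these reasons the sequence ahead of each is shown. The RefSeq promoter table (GRCr8) matched 5 of the 7 genes. The 250 bases before the annotated start are written 5′ to 3′ on the strand of the gene, with capitals marking the motif matches. They lie at chr12:20759116-20759365 (plus strand) for Pdgfa and chr7:113438344-113438593 (minus strand) for Pdgfb, in a build other than the rn6 build of the counts.
Pdgfa: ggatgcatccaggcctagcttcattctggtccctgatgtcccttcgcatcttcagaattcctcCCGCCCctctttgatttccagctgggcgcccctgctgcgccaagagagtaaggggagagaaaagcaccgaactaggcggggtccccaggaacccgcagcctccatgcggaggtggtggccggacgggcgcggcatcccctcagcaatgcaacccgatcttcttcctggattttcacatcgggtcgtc
Pdgfb: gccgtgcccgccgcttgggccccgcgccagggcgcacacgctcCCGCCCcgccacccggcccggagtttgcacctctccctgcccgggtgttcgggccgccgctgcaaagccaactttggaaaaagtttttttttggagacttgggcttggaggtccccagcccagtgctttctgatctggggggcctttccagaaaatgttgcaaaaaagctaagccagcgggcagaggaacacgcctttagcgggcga
Both strands were searched for the TATA box written TATAAA, the GC box written GGGCGG, the CCAAT box in those letters, the AP-1 site written TGACTCA and the EGR site written GCGTGGGCG, and no matches overlapped. Each window held 1 match, to the GC box on the opposite strand, starting 187 bases before the start in Pdgfa and 207 bases in Pdgfb. Such a match was not particular to these genes. Among the other matched genes, Pdgfd also held 1 GC box on the opposite strand, 114 bases before its start, and Pdgfc and Pdgfra held none. Among the same windows of 33469 promoters, 30.5% held a GC box, 12.9% a TATA box, 34% a CCAAT box, 4.05% an AP-1 site and 0.478% an EGR site. The G and C content was 60.8% for Pdgfa and 63.6% for Pdgfb, against a median of 51.2% over all promoters. A match is a description of the letters and not a binding site.

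The receptor gene Pdgfrb was higher in all 6 repaired groups than in control tendons, by 2.20 to 3.15-fold. Pdgfra was higher in 5 of the 6 groups, but 4 of these calls were lost when control replicate 4 was left out. With TMM scaling Pdgfa was lower in 5 of the 6 groups and Pdgfb in the treated 7D groups, though scaling on library size only left both without a call, while Pdgfd was higher in 4 groups and Pdgfc in 1 group. Pdgfrl passed the test in none. The test was the quasi-likelihood test of edgeR, with p-values adjusted by the Benjamini-Hochberg procedure over the 12558 genes and called at an adjusted p under 0.05, and all 6 comparisons share the same 3 control tendons.

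**Figure D1:**
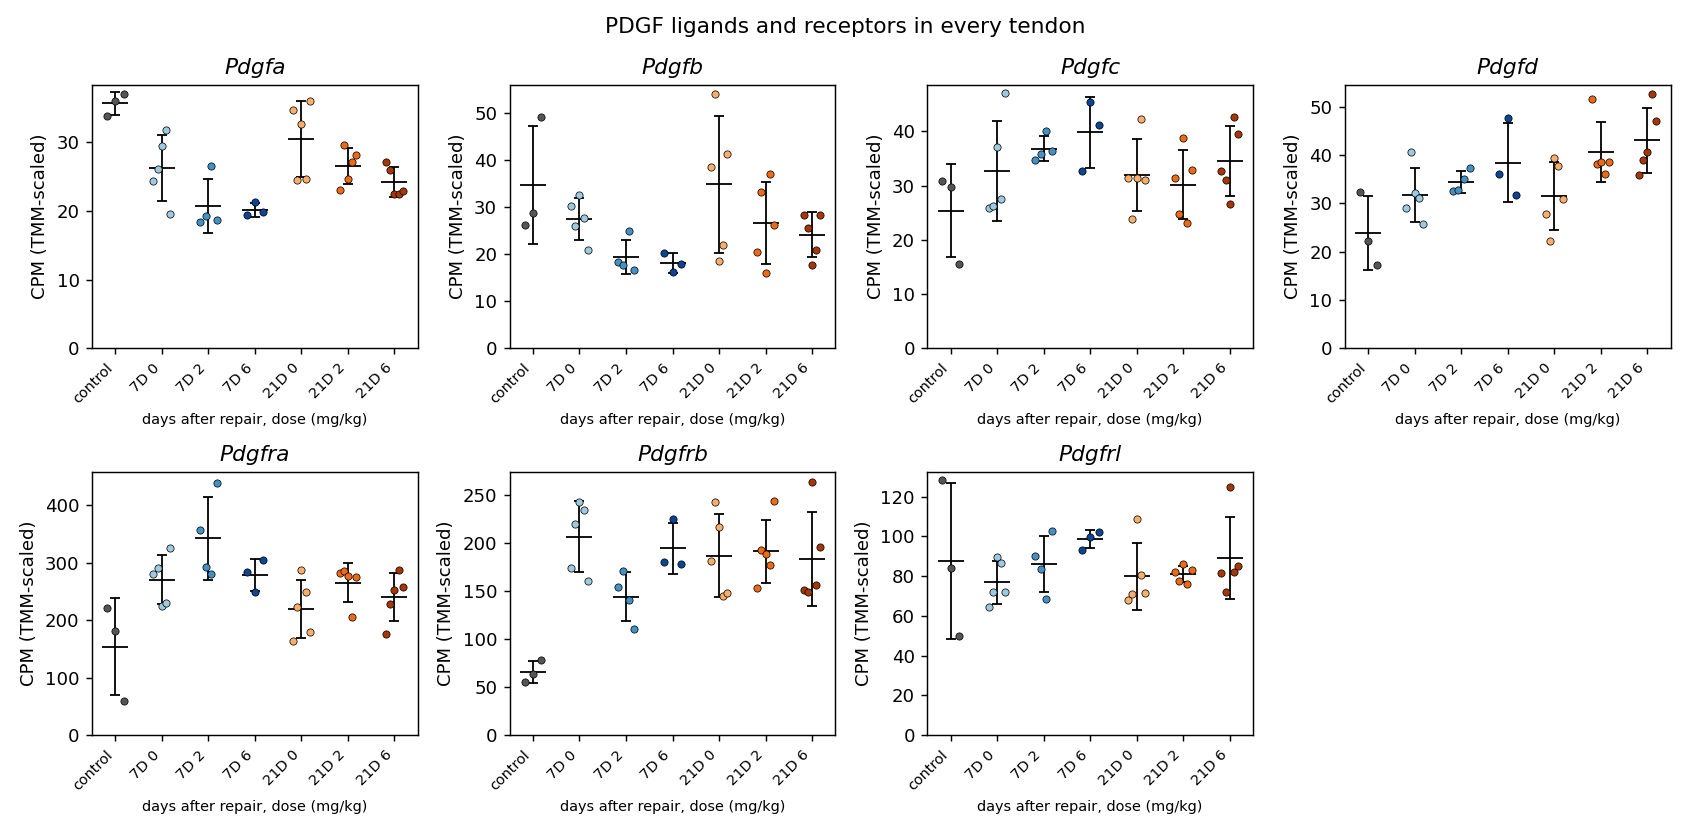
TMM-scaled CPM of the 7 PDGF genes in each tendon (points) by group, with bars for the mean ± SD of 3 to 5 tendons and axes that start at 0. All repaired tendons lie above the control tendons for Pdgfrb, whereas the control tendons span 58.5 to 222 CPM for Pdgfra.

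Comparing 7D 0 mg/kg with control tendons, 2 of the 7 genes were called higher and 1 lower. This compared with 71.4% of all genes tested called in either direction, 35.8% higher and 35.6% lower. At 7D 2 mg/kg the counts were 3 higher and 2 lower (69.7% of all genes called, 35.8% higher and 34% lower), and at 7D 6 mg/kg 4 higher and 2 lower (67.9%, 34.1% higher and 33.8% lower). At 21D they were 1 higher and 0 lower at 0 mg/kg (65.9%, 32.2% higher and 33.7% lower), 3 higher and 1 lower at 2 mg/kg (69.1%, 33.8% higher and 35.3% lower), and 3 higher and 1 lower at 6 mg/kg (64.1%, 30.8% higher and 33.3% lower). The share of PDGF genes called was below that of all genes in 4 groups, near it at 7D 2 mg/kg, where 5 of 7 were called, and above it at 7D 6 mg/kg, where 6 of 7 were called. That count was not stable, since leaving out 1 tendon gave 2 to 6 calls and a fit of only the groups compared gave 3. The median log2 fold change of the 7 genes was 0.36 at 7D 0 mg/kg and 0.33 at 21D 0 mg/kg, against 0.05 and 0.03 over all genes. Both medians were the value of Pdgfc, which was not called in either group. When 1 tendon was left out, the Pdgfc value ranged from 0.05 to 0.52 at 7D and from 0.03 to 0.49 at 21D. A difference of these medians from all genes was therefore not stable.

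**Figure D2:**
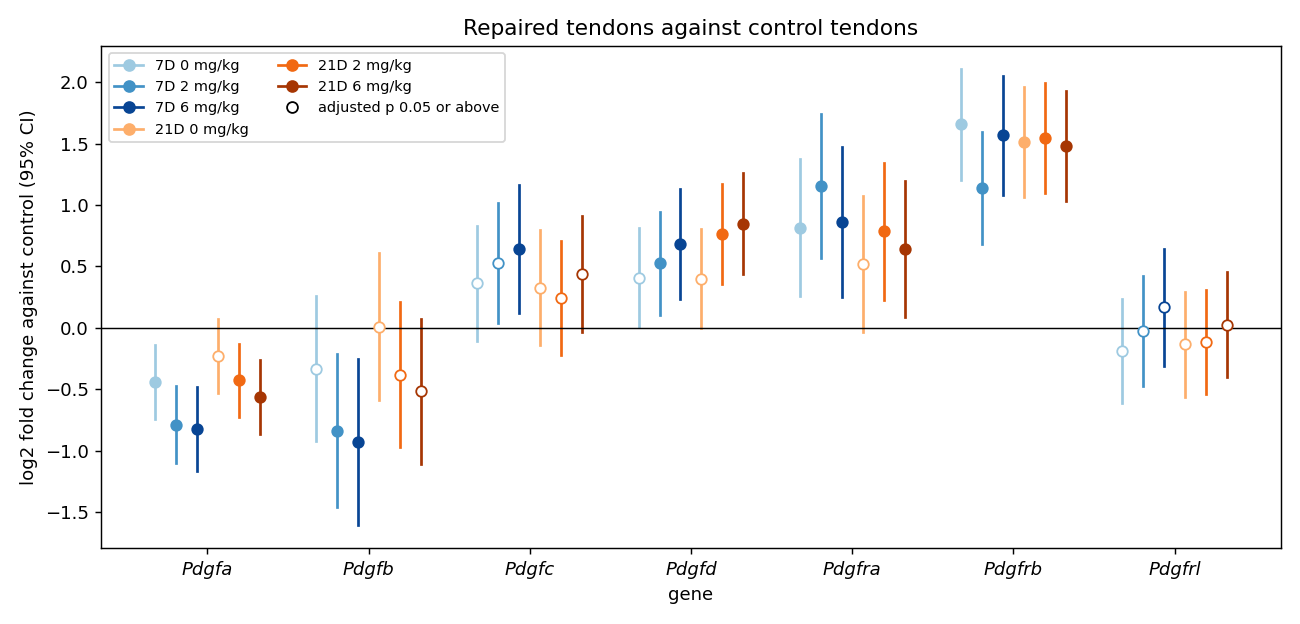
Log2 fold change of each PDGF gene in the 6 repaired groups against control tendons (points), with 95% confidence intervals (lines) from edgeR; open points have an adjusted p of 0.05 or above. Pdgfrb lies between 1.14 and 1.66 in all groups, Pdgfa lies below 0 with the TMM scaling used here but at 0.16 at 7D 0 mg/kg by library size alone, and the intervals of Pdgfrl span 0.

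Pdgfa (ENSRNOG00000001312, chromosome 12), which encodes the A chain that binds the alpha receptor, was measured at 33.8, 36.0 and 37.1 CPM in the control tendons. The 7D 0 mg/kg tendons had 24.4, 26.0, 29.5, 31.8 and 19.6 CPM. All 5 lay below the lowest control tendon. The log2 fold change was -0.44 (SE 0.15, adjusted p = 0.00908). The 7D 2 mg/kg tendons had 18.4, 19.2, 26.5 and 18.7 CPM, with a log2 fold change against control of -0.79 (adjusted p = 7.84e-05). The 7D 6 mg/kg tendons had 19.4, 21.4 and 19.8 CPM, with a log2 fold change of -0.82 (adjusted p = 0.000121). Neither group overlapped the control tendons. At 21D the values were 34.7, 24.5, 32.6, 24.6 and 36.1 CPM at 0 mg/kg, where the groups overlapped and the log2 fold change was -0.23 (adjusted p = 0.178). At 21D 2 mg/kg they were 23.1 to 29.6 CPM (median 27.1) and at 21D 6 mg/kg 22.4 to 27.1 CPM (median 22.9), both below every control tendon. Among all genes, 30.7, 29.1 and 32.3% lay below the control tendons without overlap at 7D 0, 2 and 6 mg/kg, and 30.3 and 27.8% at 21D 2 and 6 mg/kg. These groups had log2 fold changes of -0.43 (adjusted p = 0.0118) and -0.56 (adjusted p = 0.00172). Without control replicate 3 the 21D 2 mg/kg value was -0.38 (adjusted p = 0.0509). The direction depended on the scaling of the libraries: by library size alone, which moved the median log2 fold change of all genes at 7D 0 mg/kg to 0.64, Pdgfa was at 0.16 (adjusted p = 0.334), and no group was called.

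Pdgfb (ENSRNOG00000017197, chromosome 7) encodes the B chain, which binds both receptors and recruits pericytes to vessels. Control tendons had 26.2, 28.6 and 49.0 CPM, the highest in replicate 4. Values were 30.2, 26.0, 32.6, 27.7 and 20.9 CPM at 7D 0 mg/kg, and the groups overlapped. The 7D 2 mg/kg tendons had 18.4, 17.7, 24.8 and 16.6 CPM and the 7D 6 mg/kg tendons 20.3, 16.1 and 17.8 CPM. All 7 of these tendons were below the control tendons, a separation that 29.1% (2 mg/kg) and 32.3% (6 mg/kg) of all genes had. Log2 fold changes were -0.83 (SE 0.30, adjusted p = 0.017) and -0.93 (SE 0.33, adjusted p = 0.0149). Without control replicate 4 they were -0.55 (adjusted p = 0.134) and -0.64 (adjusted p = 0.107), and scaling on library size only gave -0.23 and -0.30. The 7D 6 mg/kg call was lost in 2 of the 6 fits that left out 1 tendon. At 21D 0 mg/kg the tendons ranged widely, at 38.4, 54.0, 18.5, 21.9 and 41.2 CPM, and no 21D group passed the test.

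Pdgfc (ENSRNOG00000010695, chromosome 2) encodes a latent ligand of the alpha receptor. It had 30.8, 29.8 and 15.5 CPM in control tendons, the lowest in replicate 4. The 7D 6 mg/kg tendons had 32.7, 45.5 and 41.3 CPM, above all control tendons, as for 34.6% of all genes, with a log2 fold change of 0.64 (SE 0.25, adjusted p = 0.0271), which fell to 0.35 (adjusted p = 0.23) without control replicate 4. That call was lost in 3 of the 6 fits that left out 1 tendon. Group means in the other repaired groups were 30.2 to 36.8 CPM, and none of these groups passed the test, with log2 fold changes of 0.24 to 0.53. At 7D 2 mg/kg the adjusted p was 0.0503. These values also depended on the scaling. By library size alone, Pdgfc means were 18.5 CPM in control tendons and 30.8 to 42.4 CPM in repaired groups, a wider gap than with TMM.

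Pdgfd (ENSRNOG00000029148, chromosome 8) encodes a latent ligand of the beta receptor. Control tendons had 32.2, 22.1 and 17.2 CPM. The 21D 2 mg/kg tendons had 51.6, 38.2, 38.5, 36.1 and 38.5 CPM and the 21D 6 mg/kg tendons 35.9, 38.8, 40.7, 52.6 and 47.0 CPM, all above the control tendons. The same separation was seen for 29.5% and 25.9% of all genes. Log2 fold changes were 0.76 (SE 0.20, adjusted p = 0.00146) and 0.85 (SE 0.20, adjusted p = 0.000682). At 7D 2 mg/kg the values of 32.6 to 37.3 CPM gave 0.52 (adjusted p = 0.0255), and at 7D 6 mg/kg those of 31.7 to 47.6 CPM gave 0.68 (adjusted p = 0.00765). Without control replicate 4 these 7D values were 0.29 (adjusted p = 0.241) and 0.46 (adjusted p = 0.0821). Among the fits that left out 1 tendon, 3 of 7 lost the call at 7D 2 mg/kg and 2 of 6 at 7D 6 mg/kg. The 0 mg/kg groups had 0.41 at 7D (adjusted p = 0.0652) and 0.40 at 21D (adjusted p = 0.0751). Scaling mattered here too: by library size alone, Pdgfd means were 17.15 CPM in control tendons and 32.79 to 43.25 CPM in repaired groups.

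Pdgfra (ENSRNOG00000002244, chromosome 14), the alpha receptor, had 222, 181 and 58.5 CPM in control tendons. The 7D 0 mg/kg tendons had 281, 291, 225, 230 and 326 CPM and lay above the control tendons without overlap, as did 31.2% of all genes. The log2 fold change was 0.81 (SE 0.27, adjusted p = 0.00954). The 7D 2 mg/kg tendons had the highest group mean, with 356, 293, 281 and 440 CPM and a log2 fold change of 1.16 (SE 0.28, adjusted p = 0.000889). The 7D 6 mg/kg tendons had 284, 249 and 305 CPM, with 0.86 (adjusted p = 0.0128). At 21D the tendons ranged from 164 to 288 CPM at 0 mg/kg, 205 to 286 CPM at 2 mg/kg and 176 to 288 CPM at 6 mg/kg, each overlapping the control tendons. Log2 fold changes were 0.52 (adjusted p = 0.0907), 0.79 (adjusted p = 0.0125) and 0.65 (adjusted p = 0.0388). The low control value was that of replicate 4, the tendon with the lowest fibroblast marker sum. Without it the log2 fold change was 0.37 at 7D 0 mg/kg (adjusted p = 0.125), 0.44 at 7D 6 mg/kg (adjusted p = 0.0995), 0.34 at 21D 2 mg/kg (adjusted p = 0.167) and 0.21 at 21D 6 mg/kg (adjusted p = 0.398), while 7D 2 mg/kg remained called at 0.72 (adjusted p = 0.00681). The 21D 6 mg/kg call was lost in 4 of the 8 fits that left out 1 tendon, so it did not depend on replicate 4 alone. Without TMM, by library size alone, Pdgfra means were 113.7 CPM in control tendons and 229.4 to 357 CPM in repaired groups.

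Pdgfrb (ENSRNOG00000018461, chromosome 18), the beta receptor, had 55.0, 63.4 and 78.3 CPM in control tendons. The 7D 0 mg/kg tendons had 174, 220, 243, 235 and 160 CPM. Every one was above the highest control tendon, and the fold change was 3.15 (log2 1.66, SE 0.22, adjusted p = 3.78e-07). The 7D 2 mg/kg tendons were lowest among the repaired groups, at 154, 171, 140 and 111 CPM, or 2.20-fold the control tendons (adjusted p = 7.7e-05). The 7D 6 mg/kg tendons had 181, 225 and 178 CPM, or 2.97-fold (adjusted p = 2.81e-06). At 21D the values were 145 to 243 CPM at 0 mg/kg, 154 to 244 CPM at 2 mg/kg and 149 to 264 CPM at 6 mg/kg, with fold changes of 2.85, 2.92 and 2.79 (adjusted p = 2.12e-06, 1.19e-06 and 2.92e-06). Tendons did not overlap in any of the 6 comparisons, a separation in the higher direction that 31.2, 30.1 and 34.6% of all genes had at 7D 0, 2 and 6 mg/kg and 25, 29.5 and 25.9% at 21D. Leaving out any 1 tendon kept the 7D 0 mg/kg value between 1.48 and 1.74 on the log2 scale, and under every scaling tried the gene was called higher in all 6 groups. In the order of group means for Pdgfrb, only the control and 7D 2 mg/kg groups were neighbours that did not overlap.

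Pdgfrl (ENSRNOG00000010832, chromosome 16) encodes a protein that resembles the receptors outside the cell but has no kinase domain. It had 129, 84.1 and 50.1 CPM in control tendons, the lowest again in replicate 4. Repaired groups had means of 76.9 to 98.5 CPM, and their log2 fold changes were -0.19 to 0.17. Without control replicate 4 the log2 fold change was -0.52 at 7D 0 mg/kg (adjusted p = 0.0183), -0.46 at 21D 0 mg/kg (adjusted p = 0.0413) and -0.45 at 21D 2 mg/kg (adjusted p = 0.0416).

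Cell type markers were counted in the same comparisons, where 35.8% of all genes were higher and 35.6% lower at 7D 0 mg/kg. In those tendons, 6 of 9 fibroblast markers were higher and 0 lower than in control tendons, and their summed level was 78910 to 121500 CPM against 13420 to 48770 CPM. At 21D 0 mg/kg it was 60850 to 98440 CPM. This sum is mostly collagen: at 7D 0 mg/kg Col1a1, which is also in the tendon marker list, had a mean of 40540 CPM and Col3a1 49570 CPM. The fibroblast marker Dcn had 3691 CPM against 4099 CPM in control tendons (adjusted p = 0.553). Of 10 mural cell markers (pericytes and smooth muscle), 4 were higher and 1 lower at 7D 0 mg/kg, with sums of 562 to 1409 CPM against 557 to 884 CPM, and 0 were higher and 1 lower at 21D 0 mg/kg, where Pdgfrb was 2.85-fold higher. For the treated groups, at 7D 2 mg/kg 0 mural cell markers were higher and 1 lower (median log2 fold change -0.06), at 7D 6 mg/kg 4 were higher and 2 lower (0.38), at 21D 2 mg/kg 0 were higher and 4 lower (-0.75), and at 21D 6 mg/kg 0 were higher and 1 lower (-0.10), while Pdgfrb was 2.20, 2.97, 2.92 and 2.79-fold higher. Fibroblast markers counted 7 of 9 higher at 7D 2 mg/kg and at 7D 6 mg/kg, and 6 of 9 in each 21D group, with 0 lower. Over all genes, 30.8 to 35.8% were higher and 33.3 to 35.3% lower in these groups. The part of fibroblasts and mural cells in the receptor values was not tested. All 25 muscle markers were lower at 7D 0 mg/kg, and 23 of them at 21D 0 mg/kg. Among the remaining lists at 7D 0 mg/kg, 8 of 11 macrophage, 8 of 8 lymphocyte, 4 of 8 endothelial, 4 of 6 adipocyte and 1 of 6 platelet markers were higher, with 0 lower, and none of 5 Schwann cell markers passed the test. Of 8 tendon markers, 1 was higher and 4 lower.

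**Figure D3:**
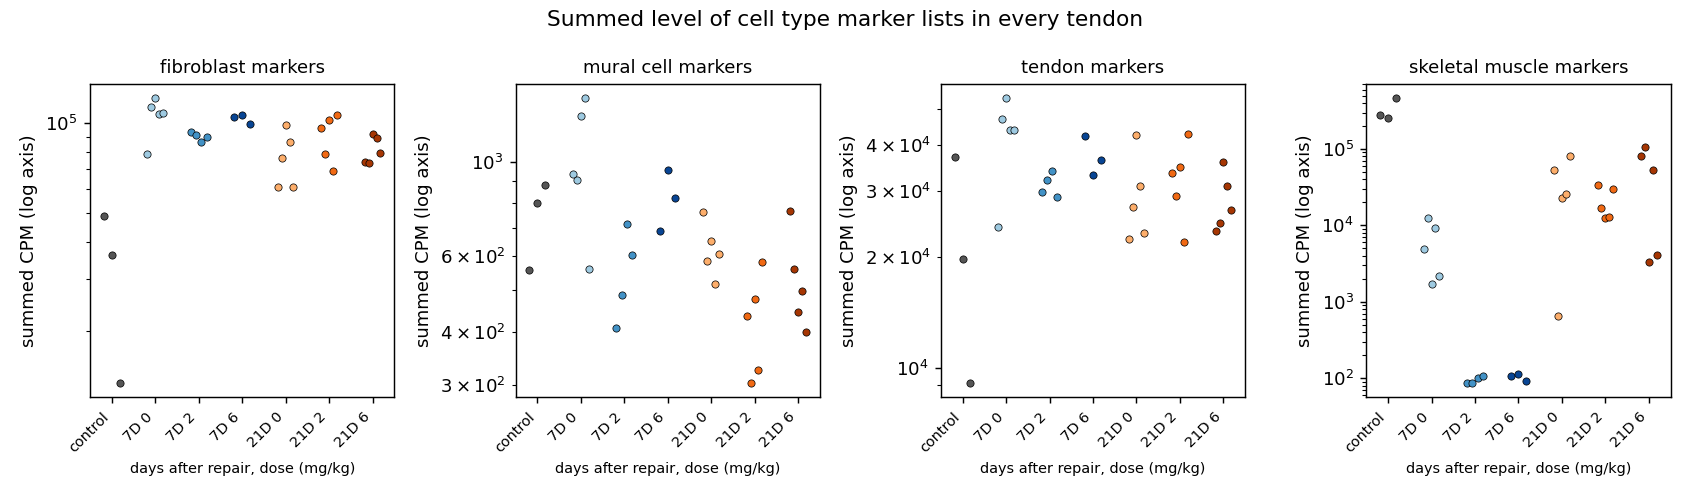
Summed TMM-scaled CPM of the fibroblast, mural cell, tendon and skeletal muscle marker lists in each tendon (points), on log axes, by group. Repaired tendons lie above all control tendons for fibroblast markers and below them for muscle markers, and mural cell sums overlap between control and 7D 0 mg/kg tendons.

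No PDGF gene passed the edgeR test between 21D and 7D tendons, and DESeq2 also called 0. At an unadjusted p under 0.05 there were 2 at 2 mg/kg, Pdgfa and Pdgfrb, and 0 at the other doses. At 0 mg/kg 5.35% of all genes were called, and at 2 and 6 mg/kg 13.1% each. At 2 mg/kg, Pdgfa was 0.36 higher on the log2 scale at 21D (95% interval 0.08 to 0.64, adjusted p = 0.0808) and Pdgfrb 0.41 higher (0.02 to 0.80, adjusted p = 0.157). At 0 mg/kg the log2 differences were -0.30 to 0.34, the highest for Pdgfb (-0.17 to 0.86, adjusted p = 0.437). At 6 mg/kg all 5 of the 21D tendons were above the 3 of the 7D tendons for Pdgfa, with a log2 difference of 0.26 (adjusted p = 0.271); such a separation was seen for 10.8% of all genes.

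No PDGF gene passed the test over the 3 doses at 7D, where 2.05% of all genes were called, or at 21D, where 0% were. The lowest adjusted p over the doses was 0.26 at 7D, for Pdgfa, and 0.431 at 21D, for Pdgfd. DESeq2 called 0 PDGF genes in every dose comparison, and at an unadjusted p under 0.05 edgeR had 2 over the doses at 7D (Pdgfa and Pdgfrb) and 2 at 21D (Pdgfa and Pdgfd), with Pdgfb also at 21D for 6 against 0 mg/kg alone. At 7D, 2 against 0 mg/kg gave a log2 difference of -0.52 for Pdgfrb (95% interval -0.91 to -0.13, adjusted p = 0.163), -0.34 for Pdgfa (-0.62 to -0.06, adjusted p = 0.204) and -0.50 for Pdgfb (-1.06 to 0.05, adjusted p = 0.384), with 2.36% of all genes called. At the same doses the 10 mural cell markers counted 1 higher and 2 lower, with a median log2 difference of -0.98, and 21 of 25 muscle markers were lower. For 6 against 0 mg/kg at 7D, where 0.39% of genes were called, all 3 treated tendons were below the 5 vehicle tendons for Pdgfb (-0.60, adjusted p = 0.846) and above them for Pdgfrl (0.36, adjusted p = 0.923), separations that 5.44% and 2.57% of all genes had. In that comparison 18 of 25 muscle markers were lower and 0 higher. The 7D 6 mg/kg tendons were above those of 2 mg/kg for Pdgfrb (0.43, adjusted p = 0.638), as for 5.22% of all genes. At 21D, 6 against 0 mg/kg gave 0.45 for Pdgfd (0.11 to 0.79, adjusted p = 0.741), -0.34 for Pdgfa (-0.60 to -0.07, adjusted p = 0.752) and -0.53 for Pdgfb (-1.04 to -0.01, adjusted p = 0.759). Between 2 and 6 mg/kg 0 genes of the whole table were called at either time by edgeR, where 997 genes at 7D and 1751 at 21D had an unadjusted p under 0.05 and DESeq2 called 69 and 254. At 21D edgeR called 0 genes for 2 or 6 against 0 mg/kg, with 1078 and 810 at an unadjusted p under 0.05 and 19 and 1 called by DESeq2. A difference in dose effect between the times was not called for any PDGF gene, with 0.223% and 0.239% of all genes called for 2 and 6 mg/kg. Of 25 muscle markers, 13 and 16 were called in these 2 comparisons, all higher. The largest value among the PDGF genes was 0.55 for Pdgfrb at 2 mg/kg (0.02 to 1.09, adjusted p = 0.483). These intervals leave room for dose differences of the sizes given, so equal levels were not shown.

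Ratios of counts within a tendon do not depend on the scaling of the libraries. None of the 15 comparisons of 3 ratios passed an exact two-sided permutation test after Benjamini-Hochberg adjustment. The smallest p that the group sizes allowed was 0.00794 to 0.0357, so no single comparison could have passed on its own. From 7D to 21D at 2 mg/kg the mean log2 ratio of Pdgfrb to Pdgfra went from -1.25 to -0.48 (difference 0.77, exact permutation p = 0.0317, adjusted p = 0.238), and that of Pdgfd to Pdgfc from -0.10 to 0.44 (difference 0.54, exact permutation p = 0.0317, adjusted p = 0.238). Against control tendons the ratio of Pdgfrb to Pdgfra was 0.64 higher at 7D 0 mg/kg (exact permutation p = 0.357, adjusted p = 0.918), where the control tendons alone ranged from -2.01 to 0.42. A pair of receptor to ligand ratios was computed after the values had been seen and carries no test. Pdgfrb to Pdgfb was 1.60 to 2.21 in control tendons and 3.58 to 14.9 in repaired tendons, with no overlap, as for Pdgfrb alone. Pdgfra to Pdgfa was 1.58 to 6.54 in control tendons and 4.71 to 23.5 in repaired tendons, and these overlapped.

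**Figure D4:**
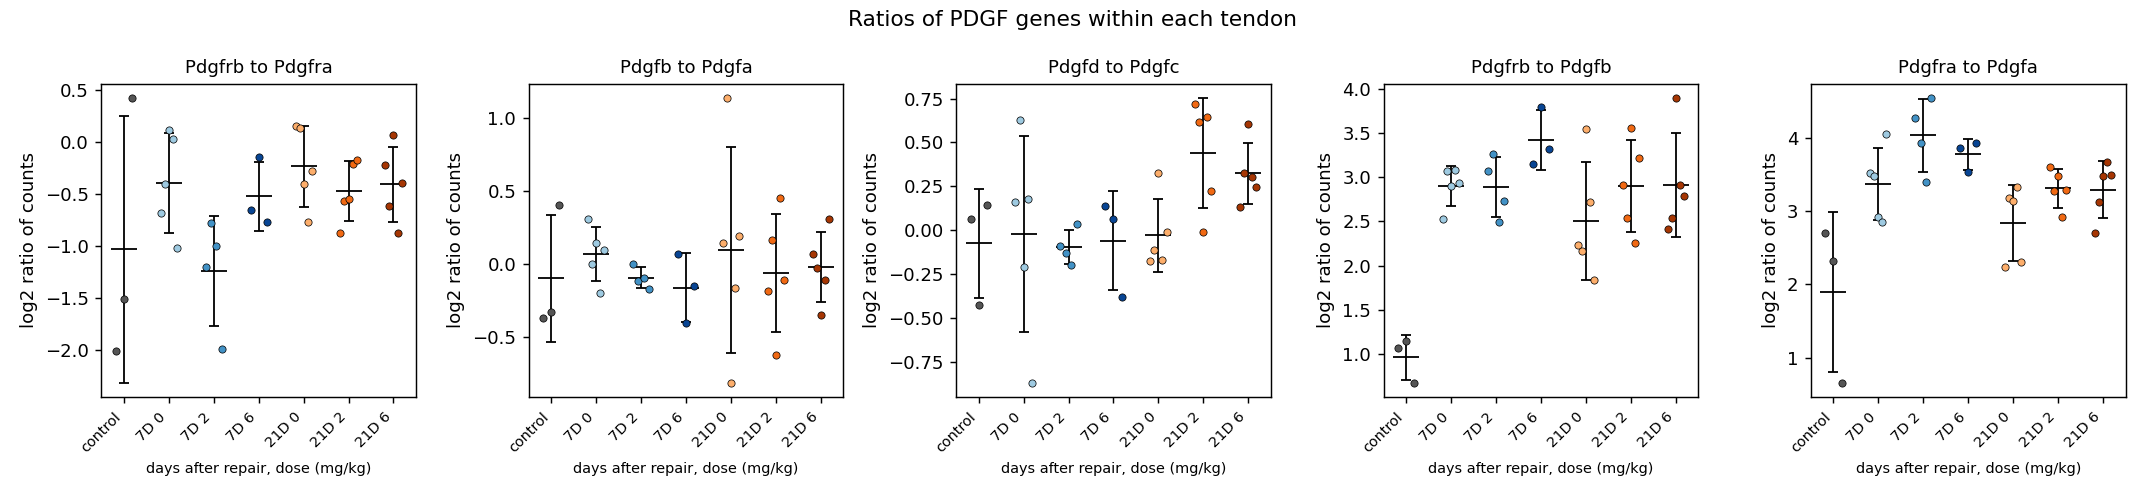
Log2 ratio of counts between pairs of PDGF genes in each tendon (points) by group, with the mean ± SD. All repaired tendons lie above the control tendons for Pdgfrb to Pdgfb, and control and repaired tendons overlap for the other ratios. Receptor to ligand ratios were computed after the values had been seen and carry no test.

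Over the 27 repaired tendons, the log2 CPM of Pdgfa and Pdgfb moved together (Pearson r = 0.63, Spearman rho = 0.656), and within groups r was 0.366. Pdgfra moved against both, with r = -0.698 for Pdgfa (rho = -0.637, within groups -0.615) and -0.662 for Pdgfb (rho = -0.617, within groups -0.589). Without the 2 tendons farthest from the median of the ligand these were -0.57 and -0.634. The points share libraries and their scaling, and these coefficients are descriptions with no p. Pdgfa also moved with the summed muscle markers (r = 0.683, within groups 0.459). Within groups its r was larger with the summed mural cell (0.635) and endothelial markers (0.597), for which r over all 27 tendons was 0.231 and 0.104. Pdgfb moved against the summed fibroblast markers (r = -0.579, within groups -0.661). For Pdgfra the signs were opposite: r was -0.547 with muscle (within groups -0.214) and 0.554 with fibroblast markers (within groups 0.514). With mural cell and endothelial markers Pdgfra had -0.44 and -0.535 within groups, and -0.187 and -0.152 over all 27 tendons. The part of tissue makeup in these coefficients was not tested.

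**Figure D5:**
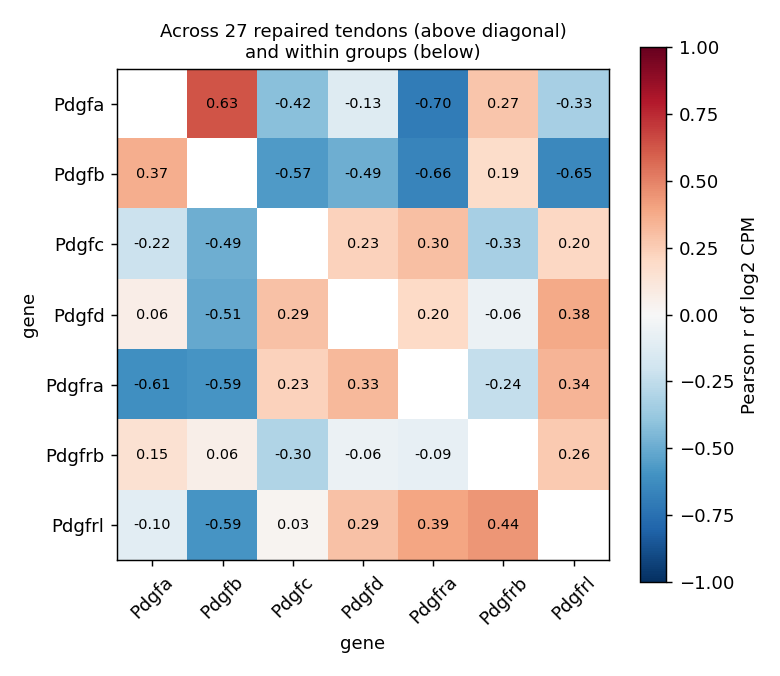
Pearson r of log2 CPM between PDGF genes, across the 27 repaired tendons above the diagonal and after subtracting each group's mean below it. Pdgfa and Pdgfb have r = 0.63 together and -0.698 and -0.662 with Pdgfra.

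Among all genes kept, those whose log2 CPM followed each PDGF gene most closely over the 27 repaired tendons were ranked, and up to 3 are given for each. For Pdgfra they were C1r (r = 0.924), Scara3 (0.815) and App (0.814), and for Pdgfrb Sorcs2 (0.869), Hps4 (0.835) and Srgap3 (0.792). For Pdgfrl they were Fkbp9 (0.805), Vkorc1 (0.787) and Sparc (0.779). The ligand Pdgfa was followed by Plekhh3 (0.815), Rem1 (0.759) and Klc4 (0.758), Pdgfb by Camta2 (0.809), Fam219a (0.771) and Dgkz (0.743), and Pdgfd by Rab23 (0.722), Sgce (0.714) and Neo1 (0.714). The genes given for Pdgfc, Rexo2 (0.547) and Tcf7 (0.534), had lower coefficients than those given for the other PDGF genes.

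Genes that act with the PDGFs were counted at 7D and 21D 0 mg/kg against control, where 35.8% and 32.2% of all genes were higher and 35.6% and 33.7% lower. Of 11 proteases and binding proteins, which activate or hold the ligands, 8 were higher and 1 lower at 7D, and 6 were higher and 0 lower at 21D. The proprotein convertase Pcsk5 was 2.62 higher on the log2 scale at 7D (adjusted p = 7.62e-09), tissue plasminogen activator Plat 1.79 (adjusted p = 6.46e-08) and the urokinase receptor Plaur 2.19 (adjusted p = 2.14e-06). Plat encodes the protease known to activate PDGF-CC. Of 22 adaptors and effectors of the receptors, 11 were higher and 6 lower at each time. Sos2, an exchange factor for Ras, was at -1.27 (adjusted p = 4.92e-10), the phosphatase gene Ptpn11 at -1.33 (adjusted p = 6.21e-10) and the kinase gene Src at 1.67 (adjusted p = 1.52e-08).

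Of 12 attenuators, which limit receptor signaling, 5 were higher and 2 lower at each time, beside the same 35.8% and 32.2% of all genes higher and 35.6% and 33.7% lower. The 3 with the smallest adjusted p at 7D were Ptprj (1.30, adjusted p = 0.000892), Dusp6 (0.74, adjusted p = 0.00177) and Spred1 (0.75, adjusted p = 0.00367). Of 14 early response genes to growth factors, 7 were higher and 2 lower at 7D and 7 were higher and 1 lower at 21D. Myc was at 1.99 (adjusted p = 2.32e-06), Junb at 1.49 (adjusted p = 0.000315) and Srf, which encodes serum response factor, at -0.84 (adjusted p = 5.53e-06). Of 7 other class III receptor kinases and their ligands, 3 were higher at 7D and 5 at 21D, with 0 lower, and Kit was at 1.40 (adjusted p = 7.27e-06), Flt3 at 2.29 (adjusted p = 0.000246) and Csf1r at 1.25 (adjusted p = 0.0163). Median log2 fold changes of the 5 lists at 7D were 0.85, 0.36, 0.41, 0.60 and 0.62 in the order given, against 0.05 over all genes. Between 21D and 7D at 0 mg/kg, 2 of the 11 proteases and binding proteins, 1 of the 22 adaptors and effectors and 1 of the 14 early response genes passed the test, where 5.35% of all genes did.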

How the data were processed

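RNA was extracted by the study from 30 plantaris tendons, 1 per rat, and sequenced as single-end reads. The authors used fastp for trimming and STAR for mapping to rn6, counted reads in exons of Ensembl release 95, and deposited these counts unnormalized. The submitters' processing notes name FastQC, STAR and edgeR; versions are not given in the sources used here. A second deposited table holds the authors' own edgeR comparisons, which were not used, and only identifiers, chromosomes and widths were taken from it. Groups follow the repair time and the dose of each label, which give 3 tendons at 7D 6 mg/kg, where the removals described in the methods would leave 4.

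A gene was kept if its mean reached 3 CPM in any group (12558 of 13124 genes), and libraries were scaled by TMM. One edgeR 4.0.16 quasi-likelihood model (R 4.3.3) with a mean per group was fitted to all 30 tendons, with p-values adjusted over all genes kept. Log2 CPM used a prior count of 2. Ratios were compared by exact permutation tests (SciPy 1.17.1). Steps were tested on simulated data. The members and gene lists were chosen with earlier results of these data known. Named genes of a list were the 3 with the smallest adjusted p at 7D 0 mg/kg, and likeness was ranked by Pearson r, with the first 3 genes given for each member except 1 that is not reported here. Correlations with marker sums were added after seeing the data. Floors cover counting error only, since reads carry no molecular identifiers. No tendon was a duplicate of another in its group, since the smallest chi-square per gene between tendons of 1 group was 29.6. Tendons of different groups were not compared in this way. Alternatives were DESeq2 1.42.0, other scalings, no filter, a replicate block, fits of only the groups compared, and leaving out each tendon.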

Additional observations from a re-analysis of the deposited data

Results flagged for a closer look

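Of 35 sets of 4 or 5 tendons (7 genes in 5 groups), 4 held a tendon that lay far from the others, and chance flags about 1 set in 20. Pdgfa was 26.5 CPM in 7D 2 mg/kg replicate 4, above the other tendons of that group. Pdgfd was 51.6 CPM in 21D 2 mg/kg replicate 1, the highest of its group. Pdgfra was 205 CPM in 21D 2 mg/kg replicate 4, the lowest of its group. Pdgfrl was 125 CPM in 21D 6 mg/kg replicate 3, the highest of its group. Groups of 3 tendons, which include the control tendons, were not checked in this way.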

How the results depend on the processing

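Of 2079 alternative values for single PDGF genes, 2011 kept their side of the threshold, 36 lost a call and 30 gained one. The remaining 2 were called values that changed direction. Values without a call in either fit are among the 2011 even where they changed direction. An example was Pdgfb at 21D 0 mg/kg against control, at -0.22 to 0.29 when 1 tendon was left out. Scaling by library size alone moved Pdgfa to 0.16 at 7D 0 mg/kg and to 0.11 at 21D 2 mg/kg on the log2 scale. It moved the median of all genes at 7D 0 mg/kg to 0.64, and 7474 of 9892 called genes were then higher, against 4493 of 8966 with TMM. The number of PDGF genes called at 21D 0 mg/kg against control rose from 1 to 4 under that scaling, and to 4 with muscle genes left out of the library size and no TMM, a setting chosen after seeing the data. A fit of only the groups compared called 3 instead of 6 at 7D 6 mg/kg. Leaving out 1 tendon gave 3 to 6 calls at 7D 2 mg/kg, 2 to 6 at 7D 6 mg/kg, 1 to 3 at 21D 0 mg/kg and 0 to 1 for 21D against 7D at 2 mg/kg. The call gained there was without 7D 2 mg/kg replicate 4. For 21D against 7D at 2 mg/kg the log2 ratio difference was 0.52 to 0.92 for Pdgfrb to Pdgfra and 0.47 to 0.65 for Pdgfd to Pdgfc when 1 tendon was left out, where unadjusted exact permutation p-values reached 0.0714. The cause of these changes was not tested. Same-numbered tendons of different groups did not deviate together (76 pairs, r from -0.701 to 0.681, median 0.00685, and 6 of 30 tendons correlated best with their own number), so the numbers do not pair the samples. A replicate block changed 1 call of a PDGF gene, Pdgfc at 7D 6 mg/kg (0.59, adjusted p = 0.0601). Only 3 control tendons were measured, and 1 of them stood apart. Some small differences from control were called, but several of these calls depended on control replicate 4 or on the scaling, so such differences were not firmly resolved.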
